A study of Mus musculus with 108 samples.

Results

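The hemogenic endothelium of a mouse embryonic stem cell differentiation was compared at its early (HE1) and late (HE2) stage by the pieces of open chromatin that were cloned from it. The comparison used 4 plasmid lists of the 108 samples of the series, which are the pDONR and pSKB lists of HE1 and of HE2. Both stages were made from HM-1, a line of mouse embryonic stem cells without a working Hprt gene, differentiated in serum and sorted by flow cytometry. HE1 cells were KIT+ TIE2+ CD41- and HE2 cells were KIT+ TIE2+ CD41+, with no other treatment or genotype that set them apart. Chromatin of each stage was cut by the Tn5 transposase, which inserts into open DNA, and the pieces were moved into the donor vector pDONR and from there into pSKB, a reporter vector in which a minimal promoter drives YFP, a yellow fluorescent protein. The transposed aliquots of a stage were combined before cloning. Each stage is therefore 1 pool, pSKB is a recloned sample of pDONR, and no test between the stages was possible from the plasmid lists.

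Blood cells arise from a subset of endothelial cells in a process called the endothelial-to-hematopoietic transition. In it the cells round up, leave the endothelial layer, switch off genes of vessel identity and switch on genes of blood. The transcription factor RUNX1 is required for this step, and the surface integrin CD41, encoded by Itga2b, is one of the first blood markers to appear. Endothelial identity is held by factors of the ETS and SOX families together with VEGF and Notch signalling, and AP-1 and TEAD factors are known to act at enhancers of adherent, mesenchymal and endothelial cells.

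Distinct fragments were counted by their midpoint in bins of 500 bp and scaled to a list total of 1000000 fragments (FPM). The genome was split into 5451055 bins on 21 chromosomes, of which 43829 had a mean over the 4 lists of at least 3 FPM and were compared. These held between 43.7% and 50.6% of the fragments of a list. A bin was called where the log2 ratio of HE2 over HE1, with 0.5 FPM added, was at least 1 in size and had the same sign in both vectors. Bins within 1.5 kb of the transcription start of a protein-coding gene were taken as promoter bins (28394) and the others as distal bins (15435).

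Sequence from 6 called bins is given first, chosen from the bins named below because the motifs described further on can be read in them. Other named bins, such as those of Irf8 and Cbfa2t3, held none of these matches in the same window. Each is the 300 bp around the middle of the cloned fragments, from the plus strand of the mm10 reference, in lower case with matches in capitals to the short motifs of RUNX, GATA, ETS, AP-1, TEAD and SOX factors, whose letters are spelled out with the motif results. The first 3 were higher in HE2 and lie in an intron of Runx1 (chr16:92822227-92822526, with 2 RUNX matches and 1 SOX match), between genes upstream of Fosb (chr7:19316558-19316857, with 2 RUNX matches and 1 match each to ETS, AP-1 and TEAD) and in an intron of Ncoa2, upstream of Prdm14 as the nearest start (chr1:13154471-13154770, with 2 RUNX matches). The other 3 were higher in HE1 and lie in introns of Maml3 (chr3:51935064-51935363, with 1 AP-1 and 1 SOX match) and Smad1 (chr8:79350268-79350567, with 1 match each to ETS, AP-1 and SOX) and between genes downstream of Ccn1 (chr3:145633008-145633307, with 1 AP-1 and 1 TEAD match).
Runx1 intron, higher in HE2: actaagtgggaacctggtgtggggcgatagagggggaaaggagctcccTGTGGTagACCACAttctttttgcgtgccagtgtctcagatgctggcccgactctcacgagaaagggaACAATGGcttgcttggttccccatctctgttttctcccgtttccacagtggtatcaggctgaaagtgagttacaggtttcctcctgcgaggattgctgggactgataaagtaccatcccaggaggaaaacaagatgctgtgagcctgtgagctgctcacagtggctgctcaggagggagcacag
Fosb upstream, higher in HE2: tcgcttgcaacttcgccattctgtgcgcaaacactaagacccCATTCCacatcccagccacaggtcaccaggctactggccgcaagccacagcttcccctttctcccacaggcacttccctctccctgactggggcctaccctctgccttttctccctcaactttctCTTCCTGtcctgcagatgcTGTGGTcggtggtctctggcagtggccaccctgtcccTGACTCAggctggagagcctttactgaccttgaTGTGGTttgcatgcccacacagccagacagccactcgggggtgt
Prdm14 upstream, higher in HE2: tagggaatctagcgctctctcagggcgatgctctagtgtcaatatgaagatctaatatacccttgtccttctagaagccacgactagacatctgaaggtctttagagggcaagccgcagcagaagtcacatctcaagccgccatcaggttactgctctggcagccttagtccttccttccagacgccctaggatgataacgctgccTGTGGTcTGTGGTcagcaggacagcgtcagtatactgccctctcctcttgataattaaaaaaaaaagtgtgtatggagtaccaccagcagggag
Maml3 intron, higher in HE1: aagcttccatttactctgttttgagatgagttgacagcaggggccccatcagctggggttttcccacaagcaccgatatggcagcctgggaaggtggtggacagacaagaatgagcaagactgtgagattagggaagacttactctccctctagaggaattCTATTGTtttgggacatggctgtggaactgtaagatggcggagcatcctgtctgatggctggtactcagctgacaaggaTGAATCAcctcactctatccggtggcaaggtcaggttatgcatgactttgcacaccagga
Smad1 intron, higher in HE1: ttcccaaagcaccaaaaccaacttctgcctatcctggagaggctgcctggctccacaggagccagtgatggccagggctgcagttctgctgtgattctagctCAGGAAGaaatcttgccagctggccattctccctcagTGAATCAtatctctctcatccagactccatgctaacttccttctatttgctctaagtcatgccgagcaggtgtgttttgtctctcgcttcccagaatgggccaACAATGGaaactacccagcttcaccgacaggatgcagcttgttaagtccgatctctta
Ccn1 downstream, higher in HE1: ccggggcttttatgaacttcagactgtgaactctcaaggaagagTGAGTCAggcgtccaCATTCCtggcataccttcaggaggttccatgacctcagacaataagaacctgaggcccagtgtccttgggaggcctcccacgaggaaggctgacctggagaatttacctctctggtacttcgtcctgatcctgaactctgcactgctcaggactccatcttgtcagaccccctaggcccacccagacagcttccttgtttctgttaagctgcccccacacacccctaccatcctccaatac

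The pDONR lists held 8832923 fragments for HE1 and 6369726 for HE2, and the pSKB lists held 1733003 and 1665564. Between 69.3% and 82.7% of the fragments of a pSKB list were identical to a fragment in the pDONR list of its own stage, over all 5 stages of the series, against 1.54% to 4.36% in that of another stage, as the labels of vector and stage imply. Median fragment lengths were 225 to 230 bp and 0.399% to 0.458% of fragments were mitochondrial. Fragments within 500 bp of a protein-coding start made up 33.9% and 37.5% in HE1 (pDONR and pSKB) and 32.4% and 36.8% in HE2.

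The sort was checked at promoters, as distinct fragments within 500 bp of the transcription start. The promoter of Itga2b, the gene of the marker that separates the stages, held 377 fragments (95% Poisson interval 340 to 417) in pDONR of HE1 and 377 in that of HE2, which is 42.9 and 59.5 FPM, and 63 and 97 fragments in pSKB, which is 36.5 and 58.5 FPM. It was higher in HE2 in both vectors, with log2 ratios of 0.47 and 0.67. The promoter of Kit, the receptor both stages were sorted for, had log2 ratios of 0.19 and 0.13, and that of Tek, which encodes TIE2, had -0.53 and -0.42. Promoter accessibility is not expression, so these values do not measure the sorted proteins.

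For scale, 27.4% of all promoter bins of 500 bp were higher in HE2 in both vectors and 37.2% higher in HE1. Those bins are another unit than the windows around starts counted here. Among blood markers, 5 of 7 promoters were higher in HE2 in both vectors and none was lower in both. Their summed level was 98.1 FPM in HE1 and 119 in HE2 in pDONR, and 92.2 and 134 in pSKB, with Ptprc, which encodes CD45, at 0 in both pSKB lists and at 1 fragment in each pDONR list. Of 6 endothelial markers, 2 were higher in HE1 in both vectors and 3 in HE2. Those higher in HE1 were Tie1, an endothelial receptor (log2 ratios of -0.63 and -0.58), and Cdh5, which encodes VE-cadherin (-0.54 and -0.56). Those higher in HE2 were Pecam1 (0.02 and 0.12), Esam (0.02 and 0.22) and Emcn, which held 0 to 7 fragments in the 4 lists. Kdr had 0.25 and -0.09. The sum of the 6 endothelial promoters was 128 FPM in HE1 and 116 in HE2 in pDONR, and 128 and 116 in pSKB. Markers of mesenchyme, smooth muscle and heart, cells that the same cultures can hold, were higher in HE1 in both vectors in 6 of 10 promoters. In 1, that of Col1a1, they were higher in HE2. Some of these rest on few fragments in pSKB, such as Acta2 (6 in HE1 and 1 in HE2) and Col1a1 (2 and 2). Their sum was 93.4 FPM in HE1 and 68.3 in HE2 in pDONR, and 108 and 80.9 in pSKB. Among them Nkx2-5, a cardiac factor, had log2 ratios of -1.06 and -1.11 and Hand1, a factor of lateral mesoderm, had -0.92 and -1.33. In a sorted population, fewer cells with an open site and less opening per cell cannot be told apart, and the part of these cell types in the results that follow was not tested.

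A small share of the compared bins changed between the stages. There were 457 bins called higher in HE2, which is 1.04% of the 43829, and 440 called higher in HE1, which is 1.0%. Adjacent called bins joined into 433 and 429 regions. Both directions together made up 2.05%. Under the same rule, 14.2% of bins were called between embryonic stem cells (ES) and FLK1+ hemangioblasts (HB). The share was 18.1% between HB and HE1 and 3.25% between HE2 and hematopoietic progenitors (HP). Neighbouring steps share the lists of a stage, so these shares are not independent of each other.

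The direction was shared by both vectors in 67.0% of bins, with 28.7% higher in HE2 and 38.2% higher in HE1 in both. The median log2 ratio over all bins was -0.06. Across bins, the log2 ratios of pDONR and pSKB had a Pearson correlation of 0.55, as a description of 43829 bins that share a transposed pool in each stage. Of 713 bins that were at least 2-fold higher in HE2 in pDONR, 95.8% had the same sign in pSKB, and of 857 at least 2-fold higher in HE1, 94.6% did. In 1 bin the vectors differed at least 2-fold in opposite directions.

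**Figure D1:**
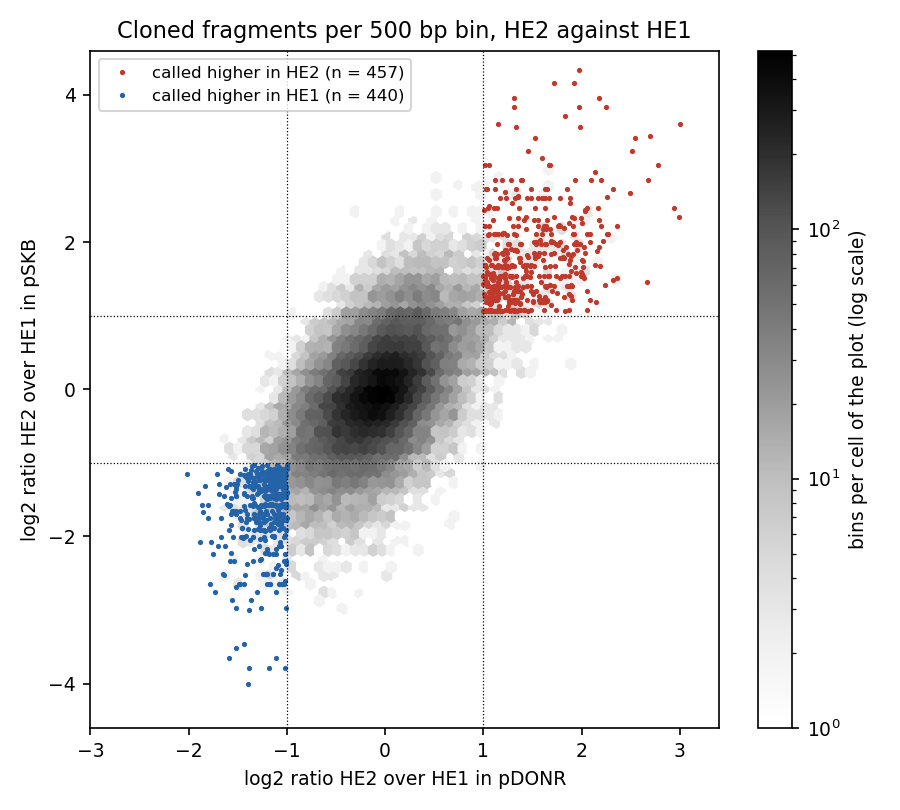
Log2 ratio of HE2 over HE1 in pDONR (x axis) against pSKB (y axis) for 43829 bins of 500 bp, in grey by the number of bins, with the 457 bins called higher in HE2 in red and the 440 called higher in HE1 in blue. Dotted lines mark a log2 ratio of 1 and -1, and the red points reach farther from 0 along the pDONR axis (up to 3.00) than the blue points.

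The bins called higher in HE2 reached larger ratios than those called higher in HE1. At 3-fold in both vectors, 115 bins were higher in HE2 (0.262% of all) and 15 higher in HE1 (0.0342%), whereas at 1.5-fold 1526 were higher in HE2 (3.48%) and 2407 in HE1 (5.49%). The smaller of both vectors' log2 ratios had a median of 1.30 and a maximum of 3.00 in HE2-higher bins, and a median of 1.15 and a maximum of 1.89 in HE1-higher bins. At the threshold itself, the called bins closest to it had a smaller log2 ratio of 1.00 in both directions, and the closest bins that were not called had 0.997 and 0.999. HE2-higher bins held a median of 19 fragments in HE1 and 43 in HE2 in pDONR, and 3 and 12 in pSKB. HE1-higher bins held a median of 58 and 16 in pDONR and 13 and 4 in pSKB, so that the pSKB values rest on few fragments.

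Most called bins were distal. Of the HE2-higher bins 406 were distal, which is 2.63% of the distal bins compared, and 51 were promoter bins (0.18%). Of the HE1-higher bins 350 were distal (2.27%) and 90 were promoter bins (0.317%). The distal called bins had a median distance of 20.4 kb from the nearest protein-coding start in the HE2-higher group and 27.7 kb in the HE1-higher group, against 16.2 kb for all distal bins. Their median GC content was 50.8% and 50.9%, against 53.2% for all distal bins.

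The lists of HB, HP and ES did not enter the calls, and they showed where the called bins stood before and after. HE2-higher bins had a low level in HB, rose through the endothelial stages and stayed high in HP. Their median level in pDONR was 0.535 FPM in ES and 0.968 FPM in HB, went from 2.16 to 6.79 FPM between HE1 and HE2, and stood at 8.82 FPM in HP. In pSKB the medians of the same 5 stages were 0.597, 1.03, 1.74, 7.24 and 8.50 FPM. The log2 ratio of HP over HB had a median of 2.65 in these bins, against 0.22 over all bins compared, and 426 of the 457 (93.2%) were higher in HP than in HB in both vectors, against 52.1% of all bins. In 418 of them (91.5%) the HP lists of both vectors held at least 3 FPM, against 77.6% of all bins. Among distal bins alone the shares were 92.1% and 58.6%.

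HE1-higher bins, which the level in HE1 chose, stood low in the median at the 3 stages that did not enter the calls. Since HE1 chose them, that it holds their highest median follows from the rule. In pDONR the medians of ES and HB were 1.78 and 1.45 FPM, that of HE1 was 6.60 FPM, and those of HE2 and HP were 2.52 and 1.32 FPM. In pSKB the 5 medians were 1.79, 1.54, 7.54, 2.41 and 1.55 FPM. The median log2 ratio of HP over HB was -0.25, and 112 of 440 (25.5%) were higher in HP in both vectors while 193 (43.9%) were higher in HB, against 26.3% of all bins. At 2-fold, 86 (19.5%) were higher in HB, against 3.9% of all bins, and 22 (5.0%) were higher in HP, against 9.48%. In 67 of these bins (15.2%) the level lay below 1 FPM in HB and in HP in both vectors, against 1.11% of all bins and no HE2-higher bin. The level of these 67 bins was low before and after the endothelial stages. Both HB lists held at least 3 FPM in 28.6% of HE1-higher bins, 12.3% of HE2-higher bins and 73.2% of all bins. At least 3 FPM in both ES lists were found in 28.4% of HE1-higher bins, 7.44% of HE2-higher bins and 64.5% of all bins. Called bins were mostly distal, and distal bins alone had other shares than all bins. HP was at least 2-fold above HB in 86.2% of HE2-higher and 5.43% of HE1-higher distal bins, against 20.6% of all distal bins. The level was below 1 FPM in HB and HP in 18.0% of HE1-higher distal bins, against 3.02%, and at least 3 FPM in both ES lists in 22.6% and 5.17% of HE1-higher and HE2-higher distal bins, against 40.5%.

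**Figure D2:**
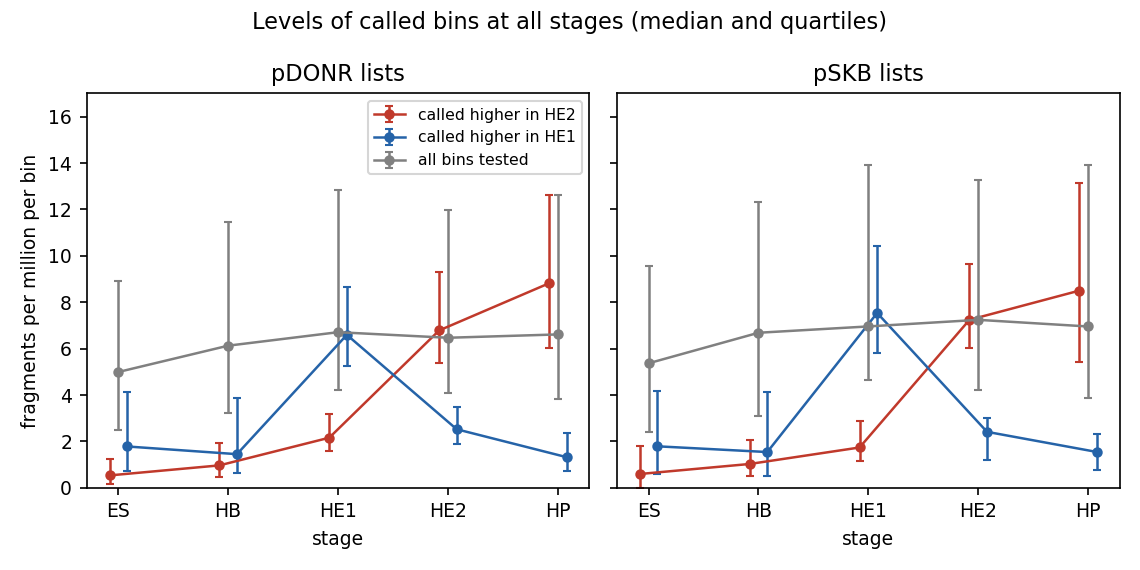
FPM per bin (y axis) at the 5 stages from ES to HP (x axis) in the pDONR and pSKB lists, as medians with bars from the lower to the upper quartile, for 457 bins called higher in HE2 (red), 440 called higher in HE1 (blue) and all 43829 bins compared (grey). The HE1 and HE2 values chose the red and blue bins, while the ES, HB and HP values did not. The red median is highest in HP (8.82 in pDONR) and the blue median is highest in HE1 (6.60 in pDONR).

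The DNA sequence of the called bins was not used by the rule. Short fixed motifs were searched on both strands of each bin. For factors of blood, the RUNX motif was TGTGGT and the motif of the GATA zinc fingers was AGATAA. The general ETS motif was CAGGAAG, and a form known from PU.1 was GAGGAAGT. The AP-1 motif was TGANTCA and that of the TEAD factors was CATTCC. A bin held a SOX motif with ACAATGG or, in place of it, with the variant ACAATAG. The E-box of basic helix-loop-helix factors was CAGNTG, and RBPJ, the DNA-binding partner of Notch, was searched as TGGGAA. The KLF/SP motif of promoters was GGGCGG, and the core of the CTCF motif was CCCTCTNG. Both ETS forms share the letters AGGAAG, so they differ by their flanks, and a match is a description of letters and not a site bound by a factor.

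The RUNX motif had the largest difference in share between the directions in distal bins, counted in percentage points. It was present in 291 of 406 HE2-higher distal bins (71.7%), in 102 of 350 HE1-higher distal bins (29.1%) and in 33.9% of the 15435 distal bins compared. RUNX factors bind this motif as partners of CBFB. RUNX and GATA motifs occurred together in 24.6% of HE2-higher, 8.0% of HE1-higher and 8.52% of all distal bins. RUNX with the PU.1-type motif occurred in 10.6%, 2.0% and 2.36%. Shares of pairs, here and below, rise with the shares of their single motifs, and a pairing beyond that was not tested. GATA alone was less uneven, with 33.7% of HE2-higher, 29.1% of HE1-higher and 23.2% of all distal bins, and so was ETS, with 50.7%, 44.6% and 36.9%. The PU.1-type motif was found in 14.3%, 7.14% and 6.74%.

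Motifs of AP-1, TEAD and SOX factors lay on the other side in distal bins, and as a ratio of shares SOX and AP-1 were more uneven than RUNX. AP-1, the dimers of JUN and FOS proteins, had its motif in 125 of 350 HE1-higher distal bins (35.7%), in 53 of 406 HE2-higher ones (13.1%) and in 21.2% of all. TEAD, which acts with the coactivators YAP and TAZ, had it in 43.7%, 24.1% and 27.4%. SOX had it in 25.7%, 8.13% and 12.1%. SOX and ETS motifs occurred together in 13.1% of HE1-higher, 4.93% of HE2-higher and 5.03% of all distal bins. KLF/SP, which is rich in G and C, was found in 16.9% of HE1-higher, 8.37% of HE2-higher and 26.5% of all, and the CTCF core in 9.43% and 8.37% of the called bins. The E-box and RBPJ motifs, with 85.5%, 76.3% and 77.5% (HE2-higher, HE1-higher, all) and 41.6%, 48.0% and 43.3%, were common in all distal bins.

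The same order was seen without a threshold for RUNX, AP-1, SOX and TEAD. For this, all distal bins, called ones included, were split into 10 groups of equal size by the mean log2 ratio of both vectors. From the lowest group (median log2 ratio -1.08) to the highest (1.02), the RUNX share went from 27.8% to 55.1%, with 38.2% in the group next to the highest. The AP-1 share went from 33.4% to 14.1%, the SOX share from 21.4% to 9.39% and the TEAD share from 36.6% to 23.8%. GATA and ETS had close shares in the lowest and highest group, with 27.7% and 27.0% for GATA and 41.6% and 42.7% for ETS. Their lean to HE2 among called bins was therefore not seen between these groups. In promoter bins, which were few among the calls, RUNX was present in 26 of 51 HE2-higher bins (51.0%), 20 of 90 HE1-higher bins (22.2%) and 19.0% of all promoter bins. KLF/SP had the larger difference there, with 11.8% of HE2-higher, 66.7% of HE1-higher and 68.4% of all promoter bins. The median GC content of these 3 groups was 54.8%, 59.2% and 61.4%, and its part in the motif shares was not tested. AP-1 did not lean to HE1 in promoter bins, with 19.6% of HE2-higher, 17.8% of HE1-higher and 7.17% of all, and TEAD was present in 25.5%, 27.8% and 18.4%. SOX was present in none of the 51, which allows a share of up to 5.88%, in 14.4% of the 90 and in 5.27% of all.

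**Figure D3:**
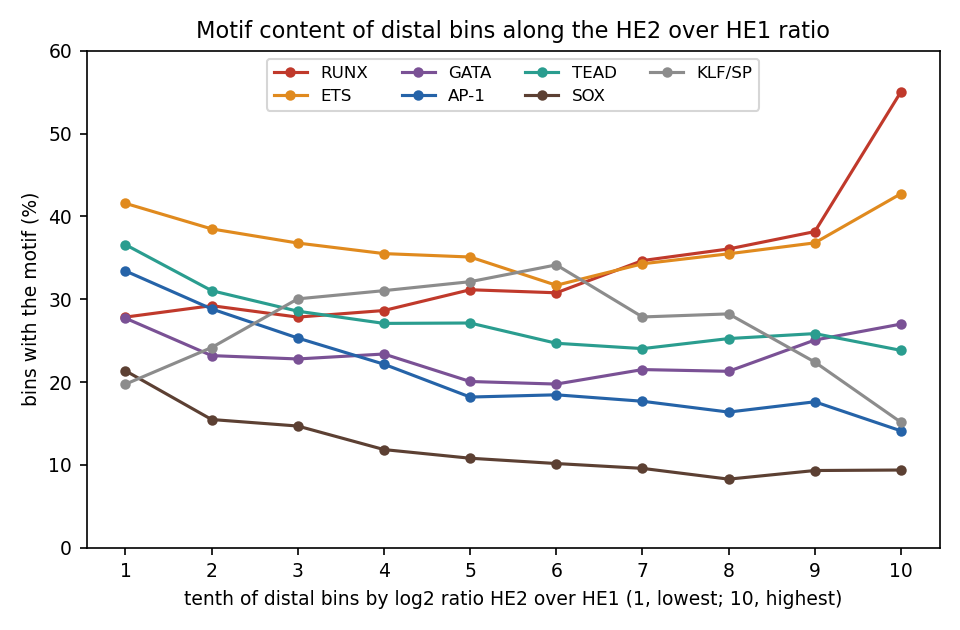
Percent of distal bins that hold a motif (y axis) in 10 groups of 1543 or 1544 bins ordered by the log2 ratio of HE2 over HE1 (x axis, from lowest to highest), one line per motif. The RUNX line climbs to 55.1% in the highest group, and the AP-1, SOX and TEAD lines are highest in the lowest group.

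Genes were then taken in lists by their known roles, with each bin given to the nearest protein-coding start within 100 kb. Members and lists were chosen with earlier results of these data known, so the lean of a list is no independent support. Counts and medians of a list are descriptions beside those of all bins, where 28.7% were higher in HE2 and 38.2% in HE1 (31% and 40.2% of distal bins). Calls of a list stand beside 1.04% (HE2) and 1.0% (HE1) of all bins, and 2.63% and 2.27% of distal bins. Among 25 receptors and junction proteins of endothelium, 94 of 169 bins (55.6%) were higher in HE1 in both vectors and 32 (18.9%) higher in HE2, with a median log2 ratio of -0.27. The 3 called bins of this list were higher in HE1 (1.78% of its bins, and no bin in HE2), near Nos3, Eng and Ephb4, a number too small to set apart from the share of all bins. Among 18 endothelial transcription factors, 66 of 131 bins (50.4%) were higher in HE1 and 21 (16.0%) in HE2, with a median of -0.13, and 3 bins (2.29%) were called in HE1 and 1 (0.763%) in HE2, again too few to compare. Among genes of the Notch pathway, which sets arterial identity, 41 of 97 (42.3%) were higher in HE1 and 22 (22.7%) in HE2, with a median of -0.08 and 1 called bin each way.

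Blood genes leaned to HE2. Among 25 blood transcription factors, 80 of 192 bins (41.7%) were higher in HE2 in both vectors and 55 (28.6%) in HE1, with a median log2 ratio of 0.08. Of these bins 8 (4.17%) were called higher in HE2 and 1 (0.521%) higher in HE1, against 1.04% and 1.0% of all bins. Of the list's 102 distal bins, 7 were called higher in HE2 (6.86%), against 2.63% of all distal bins. Of the 8 calls in HE2, 3 lie in Runx1 and 2 are adjacent bins near Cbfa2t3. Bins of the same gene are not independent, so these calls too are few to set against the share of all bins. Among 34 surface and effector genes of blood cells, 21 had a bin that passed the filter, and 29 of 59 bins (49.2%) were higher in HE2 against 14 (23.7%) in HE1, with a median of 0.17. In this list the promoter bins had a median of 0.36 and the 30 distal bins -0.15, with 0.08 in pDONR and -0.17 in pSKB, so that the vectors differed in sign there. By direction, 36.7% of these distal bins were higher in HE2 and 33.3% in HE1, against 31% and 40.2% of all distal bins. Its calls were 1 bin each way.

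Genes of other programmes leaned to HE1. Bins near AP-1 factors were higher in HE1 in 36 of 71 (50.7%) and in HE2 in 14 (19.7%), with a median of -0.20. For TEAD factors and YAP target genes it was 40 of 77 (51.9%) and 14 (18.2%), with a median of -0.20. For the BMP and TGF-beta response it was 58 of 131 (44.3%) and 28 (21.4%), with a median of -0.13. With fragments of at most 150 bp these medians were 0.00, -0.05 and -0.05, with all bins at 0.00. Genes of mesenchyme, smooth muscle and heart had 47 of 75 bins (62.7%) higher in HE1, 14 (18.7%) higher in HE2 and a median of -0.29. Pluripotency genes (11 of 34 bins higher in HE1, 32.4%, median -0.09) and housekeeping genes (24 of 60, median -0.10, with no call) lay close to all bins.

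**Figure D4:**
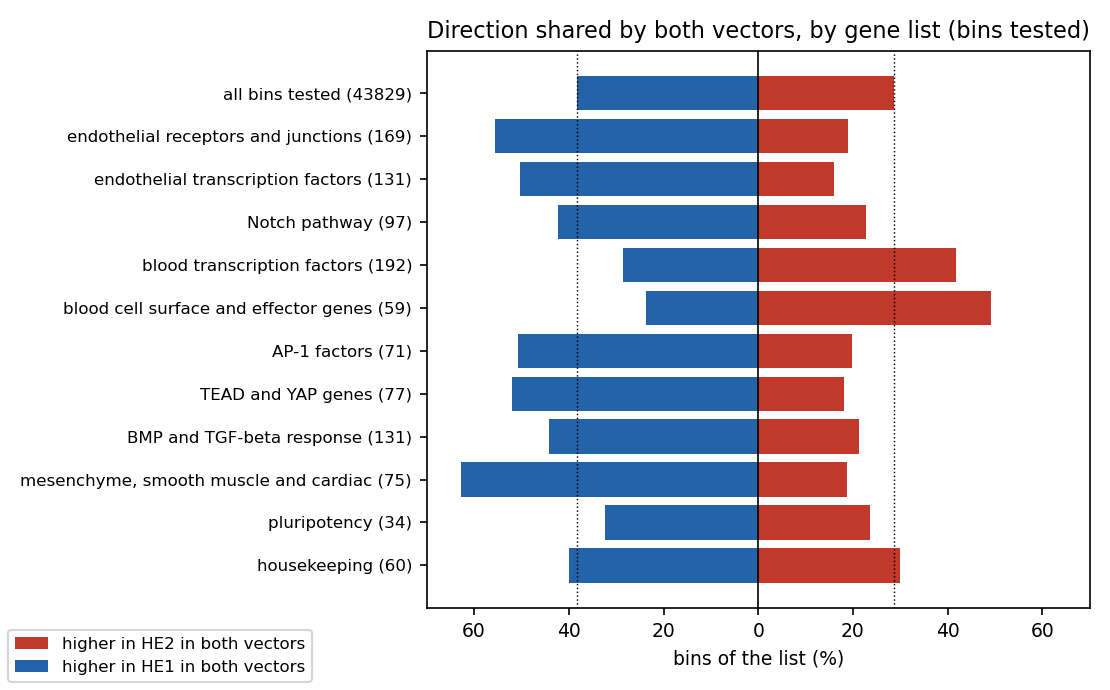
Percent of the bins of each gene list (number of bins in brackets) that were higher in HE2 (red, to the right) or in HE1 (blue, to the left) in both vectors. Dotted lines mark the shares of all bins, 28.7% and 38.2%. Red bars pass the dotted line clearly only for the lists of blood transcription factors (41.7%) and blood surface and effector genes (49.2%), and the longest blue bar is that of mesenchyme, smooth muscle and cardiac genes (62.7%).

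Runx1 had more called bins than any other blood transcription factor of the list. Of its 15 bins 8 were higher in HE2 in both vectors and 3 in HE1, and 3 were called, all higher in HE2 and all in introns. The bin 3.53 kb downstream of its distal promoter start, shown as sequence above, held 42 fragments in HE1 (95% Poisson interval 30.3 to 56.8) and 93 in HE2 (75.1 to 114) in pDONR, and 4 (1.09 to 10.2) and 25 (16.2 to 36.9) in pSKB. Its log2 ratios were 1.52 and 2.47, and its level went on to 25.6 FPM in pDONR of HP from 4.35 in HB.

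A bin 24.0 kb downstream of the same start lies in the intron that is known to hold a blood enhancer of Runx1. It held 14 and 38 fragments in HE1 and HE2 in pDONR and 2 and 10 in pSKB, with log2 ratios of 1.63 and 1.98. In HP it held 98 and 21 fragments in pDONR and pSKB. The third bin, 18.4 kb upstream of another start of the gene, held 23 and 48 fragments in pDONR and 3 and 12 in pSKB. The proximal start of Runx1, which is another start than that of the first 2 bins, had 286 and 212 fragments within 500 bp in pDONR and 53 and 63 in pSKB, with log2 ratios of 0.04 and 0.30. Poisson intervals of the unscaled counts lay apart between HE1 and HE2 in pDONR at the 3 called bins, and in pSKB they overlapped at the last 2 of them. As the ratio in the same lists chose these bins, a gap between the intervals follows in part from the call. The intervals also do not allow for the unequal list totals. All intervals cover counting error only, since PCR copies are not independent molecules and the spread between pools was not measured.

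Cbfa2t3, a corepressor that works with TAL1 and GATA factors in blood, had 2 called bins next to each other. The one 1.64 kb upstream of the nearest start held 20 and 69 fragments in HE1 and HE2 in pDONR and 3 and 19 in pSKB, with log2 ratios of 2.04 and 2.42. Cebpb, a factor of myeloid cells, had a called bin 65.3 kb downstream with 23 and 70 fragments in pDONR and 5 and 19 in pSKB. Lyl1, a partner of GATA2 and LMO2, had one at its promoter with 30 and 51 fragments in pDONR and 3 and 12 in pSKB, and Runx3, a paralog of Runx1, had one 50.4 kb upstream with 19 and 33 in pDONR and 4 and 13 in pSKB. In all 4 genes the HE2 lists held more fragments in both vectors although they were the smaller lists. Poisson intervals of these unscaled counts overlapped between HE1 and HE2 at Lyl1 and Runx3 in both vectors. They also overlapped at the second Cbfa2t3 bin (17 and 29 fragments) in pDONR and at Cebpb in pSKB. Intervals of unscaled counts do not allow for the smaller HE2 totals, so their overlap does not describe the ratio in FPM.

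Within the same list, Irf8, a factor of monocytes and dendritic cells, had the one bin called higher in HE1, and 8 of its 10 bins were higher in HE1 in both vectors. This bin held 92 and 23 fragments in HE1 and HE2 in pDONR and 18 and 7 in pSKB, with log2 ratios of -1.41 and -1.21. It held 13 fragments in pDONR of HB and 6 in that of HP. The HE1 lists were the larger ones, so unscaled counts of HE1-higher bins, here and below, overstate their ratios. Spi1, which encodes PU.1, had 2 of 3 bins higher in HE2 with a median log2 ratio of 0.74, Nfe2 had 2 of 3 with 0.98 and Myb had 3 of 4 with 0.45, with none called. Of surface genes, Itgb3, the beta subunit that pairs with CD41, had 5 of 7 bins higher in HE2 and 1 called, 11.2 kb upstream. The called bin held 24 and 42 fragments in pDONR and 2 and 10 in pSKB. Intervals of these unscaled counts overlapped in both vectors. Csf1r, the receptor of macrophages, had the bin called higher in HE1, with 121 and 30 fragments in pDONR and 28 and 6 in pSKB. The log2 ratios of this bin were -1.45 and -2.02.

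Sox17 had 2 called bins, and 9 of its 9 bins were higher in HE1 in both vectors, with a median log2 ratio of -0.72. SOX17 is an endothelial factor of arteries and hemogenic cells. Its promoter bin next to one start held 73 (95% Poisson interval 57.2 to 91.8) and 23 (14.6 to 34.5) fragments in HE1 and HE2 in pDONR, and 20 and 3 in pSKB, with log2 ratios of -1.09 and -2.39. A second called bin at another of its starts held 52 and 15 fragments in pDONR and 11 and 4 in pSKB, with log2 ratios of -1.16 and -1.24. The related Sox7 had 6 of 8 bins and Sox18 5 of 6 bins higher in HE1, with none called. Foxc2, a factor of vessels and mesenchyme, had 4 of 4 bins higher in HE1, with a median of -0.83. Elk3, an ETS factor of vessels, had the third called bin, with 83 and 26 fragments in pDONR and 13 and 5 in pSKB. The log2 ratios of this bin were -1.11 and -1.19.

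Bins near other endothelial genes were lower in HE2. Nos3, which encodes endothelial nitric oxide synthase, had a called bin at its promoter with 72 and 16 fragments in HE1 and HE2 in pDONR and 18 and 2 in pSKB, with log2 ratios of -1.52 and -2.68. Eng, a co-receptor for BMP and TGF-beta in endothelium, had an intronic bin 11.6 kb upstream of its nearest start with 148 and 44 fragments in pDONR and 37 and 8 in pSKB. The log2 ratios of this bin were -1.22 and -2.04. The neighbouring stages held few fragments of the Eng bin, with 12 fragments in HB and 6 in HP in pDONR and none of either in pSKB. Ephb4, a receptor of veins, had a called promoter bin with 101 and 34 fragments in pDONR and 23 and 10 in pSKB. Its log2 ratios were -1.03 and -1.08. Tie1 had 3 of 3 bins, Eng 6 of 7, Cdh5 6 of 7 and Cldn5, a tight junction protein, 6 of 7 higher in HE1 in both vectors. Kdr, the main VEGF receptor, had 7 of 13 higher in HE1 and none in HE2.

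Not all endothelial genes leaned that way. Erg, an ETS factor of endothelium that blood stem cells also use, had 3 of 6 bins higher in HE2, and an intronic bin 84.0 kb downstream of a start was called higher in HE2, with 21 and 56 fragments in pDONR and 2 and 11 in pSKB. Tal1, placed among the endothelial factors and also a master factor of blood, had 6 of 11 bins higher in HE2 and a median log2 ratio of 0.32. Cd34, a surface protein of endothelium and blood progenitors, had 3 of 8 higher in HE2 and 2 in HE1. Heyl had both of its bins higher in HE2, whereas Jag2, a Notch ligand, had 4 of 5 higher in HE1 and 1 called, with 66 and 20 fragments in pDONR and 12 and 4 in pSKB. The log2 ratios of the called Jag2 bin were -1.13 and -1.36. Notch1 had a called bin higher in HE2, although 7 of its 15 bins were higher in HE1 and 3 in HE2. The called bin held 18 and 33 fragments in pDONR and 3 and 7 in pSKB. Intervals of these unscaled counts overlapped in both vectors.

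**Figure D5:**
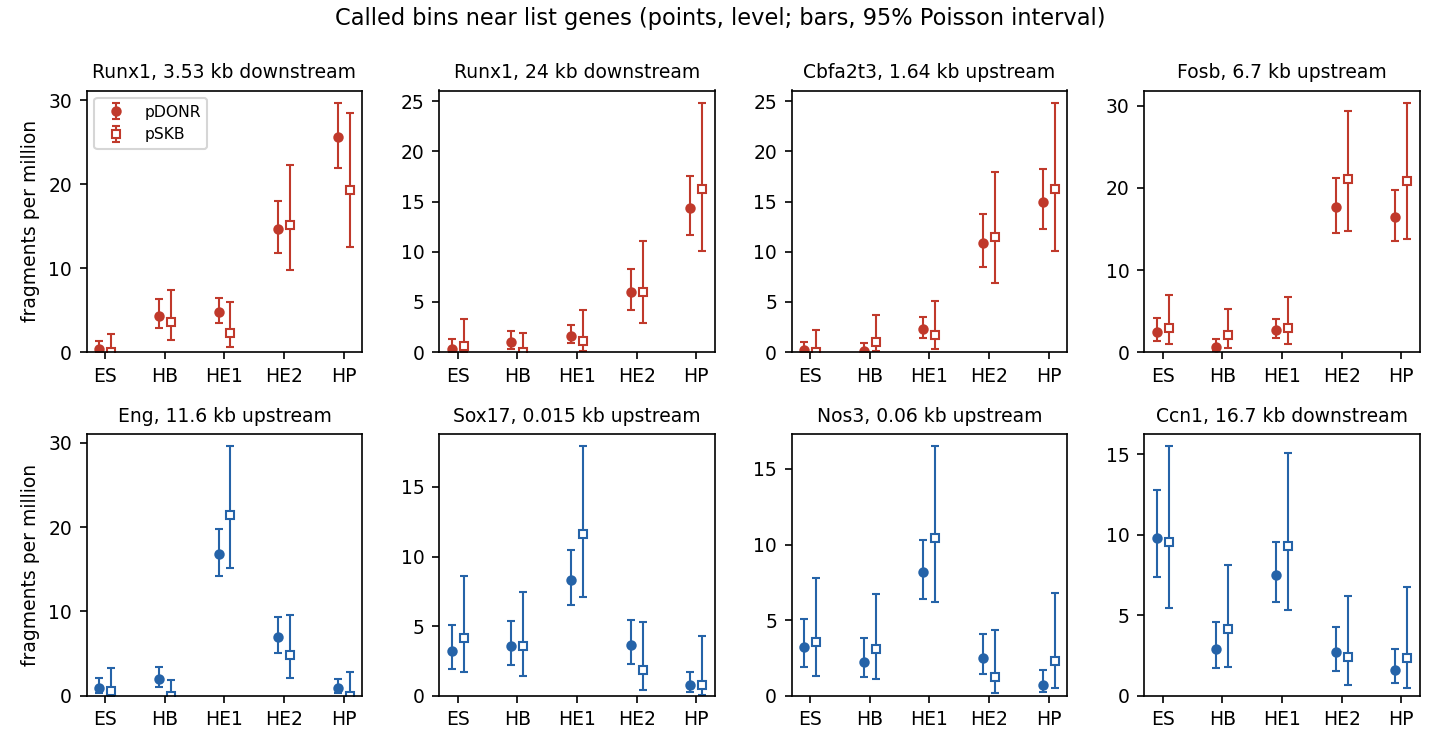
FPM (y axis) at the 5 stages (x axis) in pDONR (filled circles) and pSKB (open squares) for 8 called bins near genes of the lists, 4 higher in HE2 (red, upper row) and 4 higher in HE1 (blue, lower row), with bars for the 95% Poisson interval of the count. Distances are from the nearest annotated start of the gene. The Runx1 and Cbfa2t3 bins are highest in HP, and the Eng bin reaches 16.8 in pDONR of HE1 and is at 0.882 in pDONR of HP.

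In the list of mesenchyme, smooth muscle and heart, Hand2 and Tnnt2 had a bin called higher in HE1 and Pdgfrb one called higher in HE2. The Tnnt2 bin, near the gene of cardiac troponin T, held 66 and 14 fragments in pDONR and 15 and 4 in pSKB. Its log2 ratios were -1.56 and -1.66. The Pdgfrb bin, in the gene of a pericyte receptor, held 13 and 42 in pDONR and 1 and 11 in pSKB, and in pDONR of HP it held 49.

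Among signalling and adhesion genes, Amotl1 and Ccn1 each had a bin called higher in HE1 and Ccn2 one called higher in HE2. Ccn1 and Ccn2 encode matrix proteins and are targets of YAP, and AMOTL1 holds YAP at junctions. The Ccn1 bin held 66 and 17 fragments in pDONR and 16 and 4 in pSKB, and the Ccn2 bin held 14 and 47 in pDONR and 2 and 10 in pSKB. The log2 ratios were -1.33 and -1.75 at Ccn1 and 1.92 and 1.98 at Ccn2. Of the genes for TEAD factors and their coactivators, Tead1 (9 of 13 bins), Tead4 (3 of 5), Tead2 (1 of 3) and Yap1 (3 of 3) had bins higher in HE1 in both vectors and none higher in HE2. Tead3 had 2 bins each way, Vgll4, a cofactor that competes with YAP, 4 each way, and Wwtr1, which encodes TAZ, 2 in HE1 and 1 in HE2. Smad1, which carries the BMP signal, and Smad6, which inhibits it, had a called bin each in HE1. The Smad1 bin held 71 and 24 fragments in pDONR and 16 and 4 in pSKB, and the Smad6 bin held 112 and 35 in pDONR and 27 and 10 in pSKB. The log2 ratios were -1.0 and -1.75 at Smad1 and -1.14 and -1.31 at Smad6. In pSKB, intervals of unscaled counts overlapped at the HE1-higher bins of Irf8, Elk3, Ephb4, Jag2, Tnnt2, Ccn1, Smad1 and Smad6. They also overlapped at Hand2 and at the second Sox17 bin.

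Fosb, a subunit of AP-1, went against its own list. The bin 6.70 kb upstream of it held 24 and 112 fragments in HE1 and HE2 in pDONR and 5 and 35 in pSKB, with log2 ratios of 2.49 and 2.67, and was as high in HP (112 fragments in pDONR). No other bin of the AP-1 list was called, and 5 of 6 bins of Fosl2 and 6 of 9 of Junb were higher in HE1. Prdm14 is a pluripotency factor, but its one bin, 27.6 kb upstream and within Ncoa2, had 0 fragments in pDONR of ES and 5, 49 and 104 in HE1, HE2 and HP. The nearest gene need not be the gene that a bin acts on.

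The genes with most called bins were taken by the calls themselves and are given as a description. Over 14132 genes with a bin compared, 370 had a bin called higher in HE2 and 353 one called higher in HE1, and 17 had both. In the HE2 direction 2 genes had 3 called bins, Runx1 and Cebpe, a factor of granulocytes with log2 ratios of up to 1.32. In all 35 genes had 2 or more bins called higher in HE2 and 26 had 2 or more called higher in HE1, and of those with exactly 2 the ones named here had the largest mean ratio. For HE2 they were Fads3, Adgrg1, Cbfa2t3, Prex1, Bcr, Mdga1, Bach2, Rab11fip4, Paqr7 and Spns2. Adgrg1 encodes an adhesion receptor of blood stem cells, Prex1 an activator of Rac in blood cells, and Bach2 a repressor of lymphoid cells. In the HE1 direction 4 genes had 3 called bins. These were Ptk2, the focal adhesion kinase, Tmem170b, Igfbp3, a binding protein of insulin-like growth factors, and Rapgef5, an activator of Rap. Sparcl1, Adrb3, Plcd3, Map3k9, Rapgef1, Frmd4a, Zfp532 and Tcte2 were named from those with 2.

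The bins with the largest ratios are a description too, as the ratios chose them. Of the 8 in the HE2 direction, the bin 7998 bp downstream of the start of Fads3, a fatty acid desaturase gene, held 9 and 74 fragments in HE1 and HE2 in pDONR and 1 and 21 in pSKB. The bin near Prex1 held 7 and 53 in pDONR and 1 and 14 in pSKB, and that at the promoter of Fgd3, an activator of CDC42, held 10 and 63 and 1 and 12. The others lay near Rpl9-ps1, Rapsn, Fosb, Gm5148 and Rreb1, and all 8 held more fragments in HP than in HB in both vectors. In the HE1 direction the bins lay near Ccdc102a, Gm26897, 3100002H09Rik, Ccdc42, Adrb3, Sparcl1, Mosmo and Maml3. The bin near Ccdc102a held 89 and 15 fragments in pDONR and 16 and 3 in pSKB, and was already at 118 in pDONR of HB. The Maml3 bin, in a gene for a coactivator of Notch, held 97 and 17 in pDONR and 25 and 7 in pSKB, but 2 in pDONR of HB and 5 in that of HP. The bin near Sparcl1, a matrix protein of vessels, held 37 and 6 in pDONR and 12 and 2 in pSKB, with 3 and 1 in pDONR of HB and HP.

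The reporter cells of the same series, sorted at HE1 and HE2 by YFP, gave the only replicated measure of the called bins. Fragments of YFP-positive cells (the union of the Low, Medium and High gates of a replicate) and of YFP-Negative cells were counted in the HE2-higher and HE1-higher bins, and the log2 ratio of both counts, with 0.5 added, was compared between stages over 5 replicates. These cells carried fragments cloned from all 5 stages. Of the distinct fragments of positive cells, 18.3% at HE1 and 10.6% at HE2 were identical to an ES plasmid fragment. In Negative cells these ES shares were 8.33% and 11.6%. Shares of HB and of HP lay between 6.38% and 10.7%. Of the distinct fragments of positive HE1 cells 42.1% were identical to an HE1 plasmid fragment and 24.7% to an HE2 one, and of positive HE2 cells 48.7% and 27.3%. In Negative cells the shares were 51.1% and 26.1% at HE1 and 43.3% and 34.1% at HE2, so that the share of HE2 plasmid fragments was higher in the Negative cells sorted at HE2. The part of these shares in the differences that follow was not tested.

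In positive cells the log2 ratio was -0.37, -0.54, -0.67, -0.41 and 1.22 in replicates 1 to 5 of HE1 and -0.20, 0.26, -0.50, -0.65 and 0.93 in those of HE2. The groups overlapped, and their means of -0.15 ± 0.78 and -0.03 ± 0.64 (SD, n = 5 each) differed by 0.12 (p = 0.778 in an exact permutation test of both sides, and 0.778 after adjustment over the 3 tests). In Negative cells the ratio was -0.65, 0.10, -0.74, -0.89 and -0.16 in HE1 and -0.12, 0.58, -0.89, 0.65 and 0.00 in HE2. These groups overlapped too, with means of -0.47 ± 0.42 and 0.04 ± 0.63 (SD, n = 5 each) and a difference of 0.51 (exact permutation test, p = 0.198, adjusted p = 0.595). The difference between positive and Negative cells of a replicate was 0.31 ± 0.73 in HE1 and -0.08 ± 0.84 in HE2 (SD, n = 5 each; exact permutation test, p = 0.452, adjusted p = 0.679).

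None of these differences passed the threshold of 0.05. The positive sets of replicates 1 and 2 held 1253 to 1975 fragments in called bins, and the other positive sets 8 to 145. The size of shift that these sets could show was not computed. Without replicate 2 the difference in positive cells turned to -0.05, and the other leave-one-out values were 0.11 to 0.22. A change in use of the called bins as reporters between HE1 and HE2 was not detected. The part of depth and of the mixed plasmid origin of the fragments in this was not tested.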

How the data were processed

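Pieces of open chromatin from 5 stages of HM-1 differentiation were sequenced from plasmid pools, and from reporter cells sorted by YFP. The authors trimmed paired reads with Trim Galore, aligned them with Bowtie2 to mm10, kept alignments of mapping quality 40 with SAMtools and collapsed identical fragments with bedtools and uniq (versions not given in the sources used here), and the deposited lists hold each distinct fragment with its count of reads. Each listed fragment was counted once here, so that PCR copies and growth of clones in culture did not weigh on a bin, but a fragment cloned repeatedly cannot be told from a copy.

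The 4 lists of HE1 and HE2 held 1665564 to 8832923 fragments. Bins, filter, pseudocount and fold are given with the results, and pSKB sets the precision. Genes were taken from GENCODE M21. Named were the called bins of list genes, the 12 genes with most called bins and the 8 bins with the largest smaller ratio per direction with at least 10 fragments. Members and lists were chosen with earlier results of these data known. Stages were compared in sorted cells by exact two-sided permutation tests, with Benjamini-Hochberg adjustment over 3 tests. Deviations of same-numbered sets of HE1 and HE2 had correlations of 0.22 to 0.49 in Negative cells and 0.0005 to 0.27 in positive cells. In both kinds of cells some sets correlated most with a set of another number. Pairing by replicate number was therefore not established for either. Python 3.11.15, numpy 2.4.6, pandas 2.3.3 and scipy 1.17.1 were used, and the calling steps were tested on simulated data. Other pseudocounts, filters, scalings, bins and fragment sets were tried.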

Additional observations from a re-analysis of the deposited data

Results flagged for a closer look

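In YFP-positive HE1 cells, the log2 ratio of fragments in HE2-higher over HE1-higher bins was 1.22 in replicate 5 and lay between -0.67 and -0.37 in the other 4 replicates. Its gap to the nearest of them was 0.84 of the range of the group. It rests on 24 fragments, 17 in HE2-higher and 7 in HE1-higher bins. Chance puts about 1 in 20 groups past this limit, and 10 groups were looked at.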

How the results depend on the processing

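Counts of called bins depended on the filter, the fold and the unit more than on the scaling (HE2-higher and HE1-higher in turn, against 457 and 440). They were 932 and 807 with a filter of 2 FPM, 178 and 191 with one of 5, 13935 and 10306 without a filter, 1526 and 2407 at 1.5-fold, 115 and 15 at 3-fold, 713 and 857 in pDONR alone and 2577 and 2962 in pSKB alone, settings that add or remove bins or a vector by construction. They were 754 and 668 with a fragment counted in every bin it overlaps, 4152 and 2726 with fragments of at most 150 bp and 3986 and 3389 with reads in place of distinct fragments, and 766 bins were higher in HE1 with fragments of at least 2 reads. The cause of these was not tested. Of the 457 and 440 called bins, 202 and 186 were called again with the read counts and 259 and 143 with fragments of at most 150 bp. With fragments of at least 2 reads 298 and 257 were called again, and with a fragment counted in every bin it overlaps 356 and 275. Scaling by the median of ratios gave 539 and 352 and scaling to fragments near transcription starts 548 and 365, so that 60.5% and 60.02% of calls were higher in HE2, against 50.9%. Other pseudocounts and bins, equal numbers of fragments, correction for GC content and removal of shared or control fragments gave 362 to 568 and 295 to 572. Bins that agreed in direction numbered 18931 with a filter of 5 and 716178 without one. The median log2 ratio of HP over HB in HE2-higher bins was 2.60 in pDONR, 2.57 in pSKB and 2.47 scaled by the median of ratios, and in HE1-higher bins -0.26, -0.26 and -0.35. Over 6 alternatives no median of the 11 gene lists changed sign, but with fragments of at most 150 bp that of AP-1 factors went from -0.20 to 0.00, that of TEAD and YAP genes from -0.20 to -0.05 and that of the BMP and TGF-beta response from -0.13 to -0.05, with all bins at 0.00.

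In sorted cells the difference of HE2 from HE1 ranged over -0.05 to 0.22 (positive), 0.25 to 0.68 (Negative) and -0.57 to -0.04 (positive minus Negative) without 1 replicate, with positive cells reversed (-0.050) without replicate 2. With the replicate number as a block the differences of 0.12, 0.51 and -0.39 had exact sign-flip permutation p-values of 0.688, 0.125 and 0.375, the smallest possible being 0.0625, so that none could pass 0.05. Depth limits pSKB and sorted replicates 3 to 5 most.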
